A study of Mus musculus with 39 samples.

Results

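A set of 40 genes of cardiac muscle were followed in mouse lung: each probe set of the array that is annotated to 1 of these symbols alone was taken, and per gene the one with the highest mean log2 signal over all 39 arrays was kept. All 40 members, of 18193 named genes on the array, had such a probe set, and 38 of them lay in the upper 60% of probe sets by mean signal and were tested. The other 2, Myl2 and Xirp1, had mean log2 signals of 1.66 and 1.80, under the lowest mean tested of 3.43, and are described without a test. Each array held the lung RNA of 1 female mouse of the outbred strain Crlj:CD1(ICR), fed for 7 or 14 days on powdered diet with nothing added (control), permethrin at 5000 ppm or 10000 ppm, or isoniazid at 2500 ppm. The insecticide permethrin is a pyrethroid, and the labels name isoniazid, an antibiotic used against tuberculosis, as the positive control for tumour induction. Every group held 5 animals except permethrin 10000 ppm at 14 days, which held 4. Mice fed for 7 days were 11 weeks old and those fed for 14 days 12 weeks old, and the effects of age and of time on the diet cannot be told apart. Scan dates were not in the sources used here. A batch of RNA or arrays that goes with the duration could thus not be examined, and it cannot be told apart from these effects. P-values measure the spread between these animals.

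In rodents a sleeve of cardiac muscle continues from the left atrium along the pulmonary veins into the lung, so a whole mouse lung can hold cardiac myocytes of the atrial kind. Atrial and ventricular myocytes share most of their contractile apparatus, with Myh6 as the main myosin heavy chain of the adult mouse heart. They differ in a few isoforms: Myl7 and Myl4 are the atrial regulatory and essential myosin light chains, Sln (sarcolipin) is an inhibitor of the calcium pump found mostly in atrium, and Nppa is the atrial natriuretic peptide. Myl2 and Myl3 are the ventricular light chains, and Myh7 is the slow heavy chain of the fetal ventricle and of slow skeletal muscle. Serum response factor, MEF2, GATA4, NKX2-5 and T-box factors are known to bind promoters of many of these genes.

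The promoters of 4 genes are shown to let the chamber-specific genes be compared: the atrial Myl7 and Nppa, the shared Actc1 (cardiac alpha-actin) and the ventricular Myl2. The 250 bases before each gene's start, from RefSeq on GRCm38.p6, are written 5′ to 3′ on the gene's strand, at chr11:5898783-5899032 (minus) for Myl7, chr4:148000472-148000721 (plus) for Nppa, chr2:114052876-114053125 (minus) for Actc1 and chr5:122092474-122092723 (plus) for Myl2. Capitals mark matches on either strand to 6 motifs: the CArG box, the MEF2 box, the core motif AGATAA that zinc finger factors such as GATA4 bind, the motif TNAAGTG bound by NKX2-5, the T-box factors' motif GGTGTGA, and the promoter element TATAAA, called the TATA box. The CArG box is read by serum response factor, and the letters of a MEF2 box can contain a TATA box.
Myl7: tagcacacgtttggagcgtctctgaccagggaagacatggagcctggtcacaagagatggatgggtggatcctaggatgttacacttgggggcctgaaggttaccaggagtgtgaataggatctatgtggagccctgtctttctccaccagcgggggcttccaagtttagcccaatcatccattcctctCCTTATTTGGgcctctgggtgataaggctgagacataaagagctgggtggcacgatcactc
Nppa: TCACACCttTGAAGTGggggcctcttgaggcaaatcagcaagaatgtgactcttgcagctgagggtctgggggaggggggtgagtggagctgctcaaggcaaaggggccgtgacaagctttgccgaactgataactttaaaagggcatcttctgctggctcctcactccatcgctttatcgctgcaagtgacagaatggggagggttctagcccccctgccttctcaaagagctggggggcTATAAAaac
Actc1: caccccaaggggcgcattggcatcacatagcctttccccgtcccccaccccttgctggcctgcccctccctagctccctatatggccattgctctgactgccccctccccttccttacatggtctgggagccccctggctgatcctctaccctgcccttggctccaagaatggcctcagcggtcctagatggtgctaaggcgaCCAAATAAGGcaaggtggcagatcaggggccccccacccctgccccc
Myl2: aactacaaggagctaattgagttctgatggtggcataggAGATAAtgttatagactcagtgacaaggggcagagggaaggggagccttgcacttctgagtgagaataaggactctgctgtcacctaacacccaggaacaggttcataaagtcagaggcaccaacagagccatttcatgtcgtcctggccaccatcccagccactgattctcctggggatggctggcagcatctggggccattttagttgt
Myl7 and Actc1 each held a CArG box, beginning 61 and 47 bases before the start. Nppa held the T-box motif on the opposite strand, the NKX2-5 motif and the TATA box, beginning 250, 241 and 9 bases before the start, and Myl2 held AGATAA, beginning 211 bases before it. Promoters of 34 of the 40 members were in the RefSeq table. A CArG box was present in 4 of these 34 (Actc1, Ldb3, Myl3 and Myl7), a share of 11.8%, against 1.41% of 27018 promoters of all genes. A MEF2 box was present in 5 (Casq2, Mybpc3, Myoz2, Pgam2 and Ttn), or 14.7% against 1.75%. The other shares were 17.6% against 10.2% for AGATAA, 8.82% against 3.31% for the T-box motif, 8.82% against 10.02% for the NKX2-5 motif and 8.82% against 13.0% for the TATA box. These are matches of letters in 1 window, not sites of binding.

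Lung epithelial markers had signal in every library: the summed signal of 9 of them, surfactant proteins, Scgb1a1, Ager and others, ran from 34208 to 41220, a ratio of 1.20 between the highest and the lowest animal. The summed signal of the 38 tested cardiac genes ran from 3488 to 27570, a ratio of 7.91, and that of the 4 atrial genes from 590 to 7324, a ratio of 12.4. The epithelial probe sets lie near the top of the quantile normalized scale (Scgb1a1 from 13.05 to 13.18 and Ager from 12.72 to 12.99), where the normalization itself bounds their range, so the ratios are not compared. In RNA of a whole organ, fewer cardiac myocytes and less RNA per myocyte cannot be told apart. The array also carries probe sets at both ends of Gapdh: the log2 ratio of the 3′ to the 5′ end, which rises as RNA or cDNA is shortened, was above 0.7 in 7 arrays. All 7 were of 14-day animals (2 controls, 2 of permethrin 5000 ppm, 1 of permethrin 10000 ppm and 2 of isoniazid). In the mean log2 signal of the tested members, 6 of the 7 ranked 4, 5, 8, 10, 11 and 13 from the lowest of the 39 animals, and isoniazid 14 d replicate 5 ranked 31. The part of RNA shortening in the members' values was not tested.

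**Figure D1:**
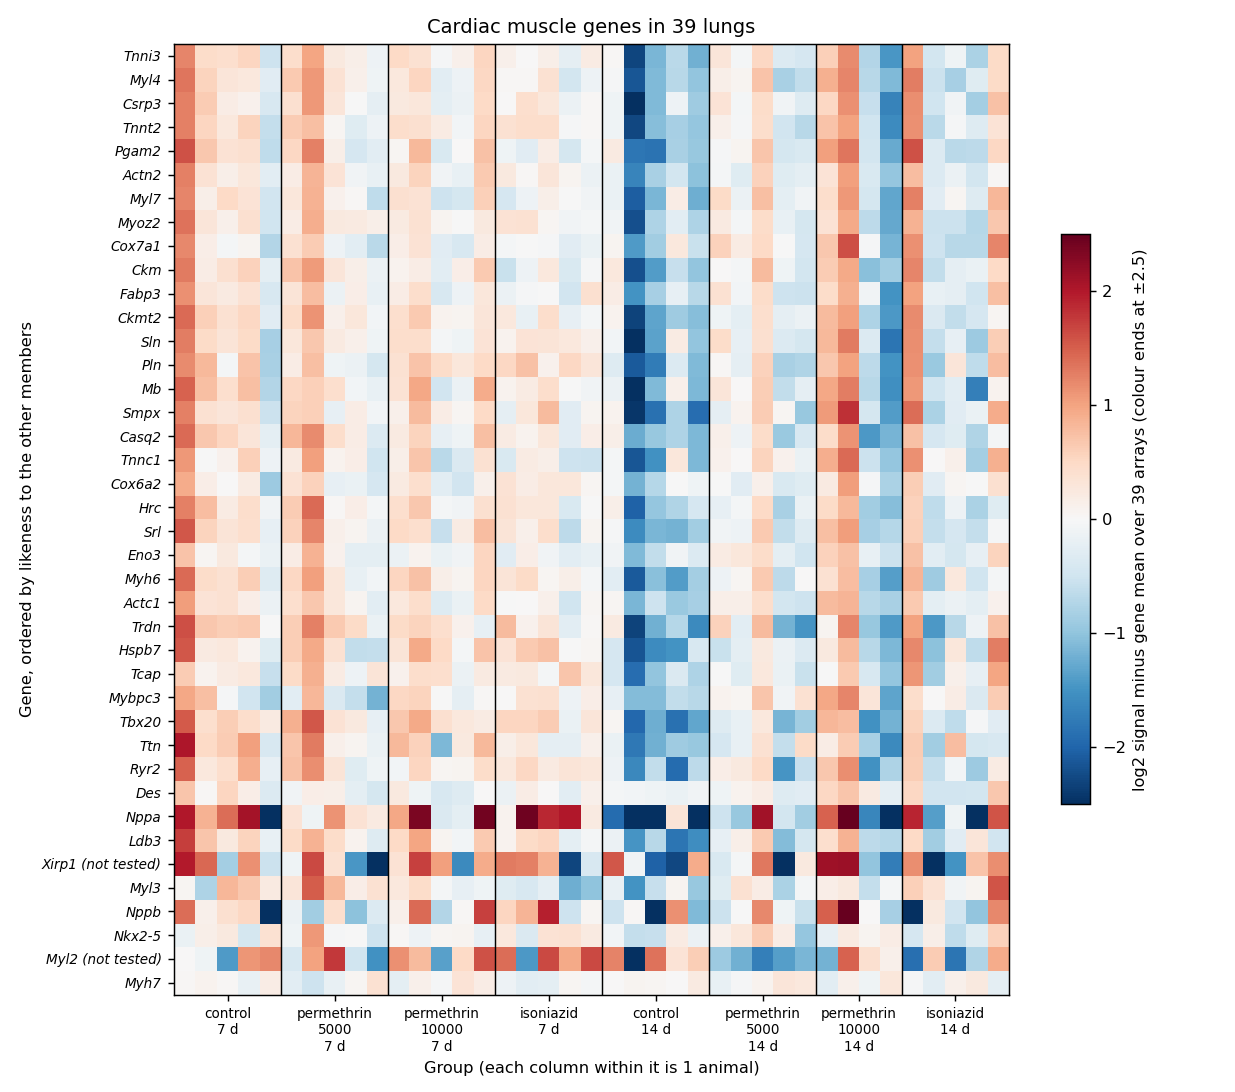
Log2 signal of each of the 40 cardiac genes (y axis, ordered by correlation with the other members) in each of 39 animals (columns, by group), as the difference from the gene's mean over all arrays, with colours ending at 2.5 on the log2 scale. Whole columns share a colour, most of all control 14 d replicate 2 (blue) and control 7 d replicate 1 (red), and Myl2, whose signal is under the lowest mean tested, and Myh7 are at the bottom.

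Myl7, the atrial regulatory light chain, had log2 signals of 11.64, 10.57, 10.91, 10.76 and 9.93 in the 7-day controls and 10.25, 8.35, 9.27, 10.60 and 9.19 in the 14-day controls. At 14 days it read 10.88, 10.27, 11.17, 10.18 and 10.33 with permethrin 5000 ppm, 10.85, 11.50, 9.96 and 9.10 with 10000 ppm, and 11.67, 10.13, 10.46, 10.09 and 11.24 with isoniazid. In all, 3 of the 5 older controls thus lay below every 7-day control, and the groups overlapped in the other 2. The difference between control animals at 14 and at 7 days was -1.23 (SE 0.38) on the log2 scale and did not pass limma's test (adjusted p = 0.139). Across all 39 arrays Myl7 spanned 9.96-fold.

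Myl4, the atrial essential light chain, read 11.01, 10.24, 9.98, 9.95 and 9.40 in the 7-day controls and 9.65, 7.54, 8.57, 8.98 and 8.70 in the 14-day controls. Sln, the atrial pump inhibitor, read 10.20, 9.39, 9.23, 9.40 and 8.08 against 8.84, 6.12, 7.58, 9.11 and 7.93. In both genes control 14 d replicate 2 was the lowest and control 7 d replicate 1 the highest of these 10 animals, and the groups overlapped. The differences were -1.43 (SE 0.39) for Myl4 and -1.34 (SE 0.45) for Sln, with limma adjusted p of 0.0975 and 0.17.

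Nppa, the natriuretic peptide that atrial myocytes secrete when stretched, had the largest within-group spread of the tested members. Its log2 signal was 8.55, 7.41, 7.95, 8.61 and 3.42 in the 7-day controls, and 4.63, 3.11, -0.80, 6.86 and 2.79 in the 14-day controls. At 14 days it read 6.02, 5.59, 8.64, 6.09 and 5.67 with permethrin 5000 ppm, 8.02, 10.37, 4.91 and 3.81 with 10000 ppm, and 8.44, 5.16, 6.44, 3.53 and 8.11 with isoniazid. The control groups overlapped only through control 7 d replicate 5. Its lowest value, -0.80 in control 14 d replicate 3, is under the lowest mean tested of 3.43, as are those of 2 others of that group, so no fold is given over the arrays. The control difference was -3.87 (SE 1.12; limma adjusted p = 0.107), with 5 of 5 older controls below the 7-day mean.

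**Figure D2:**
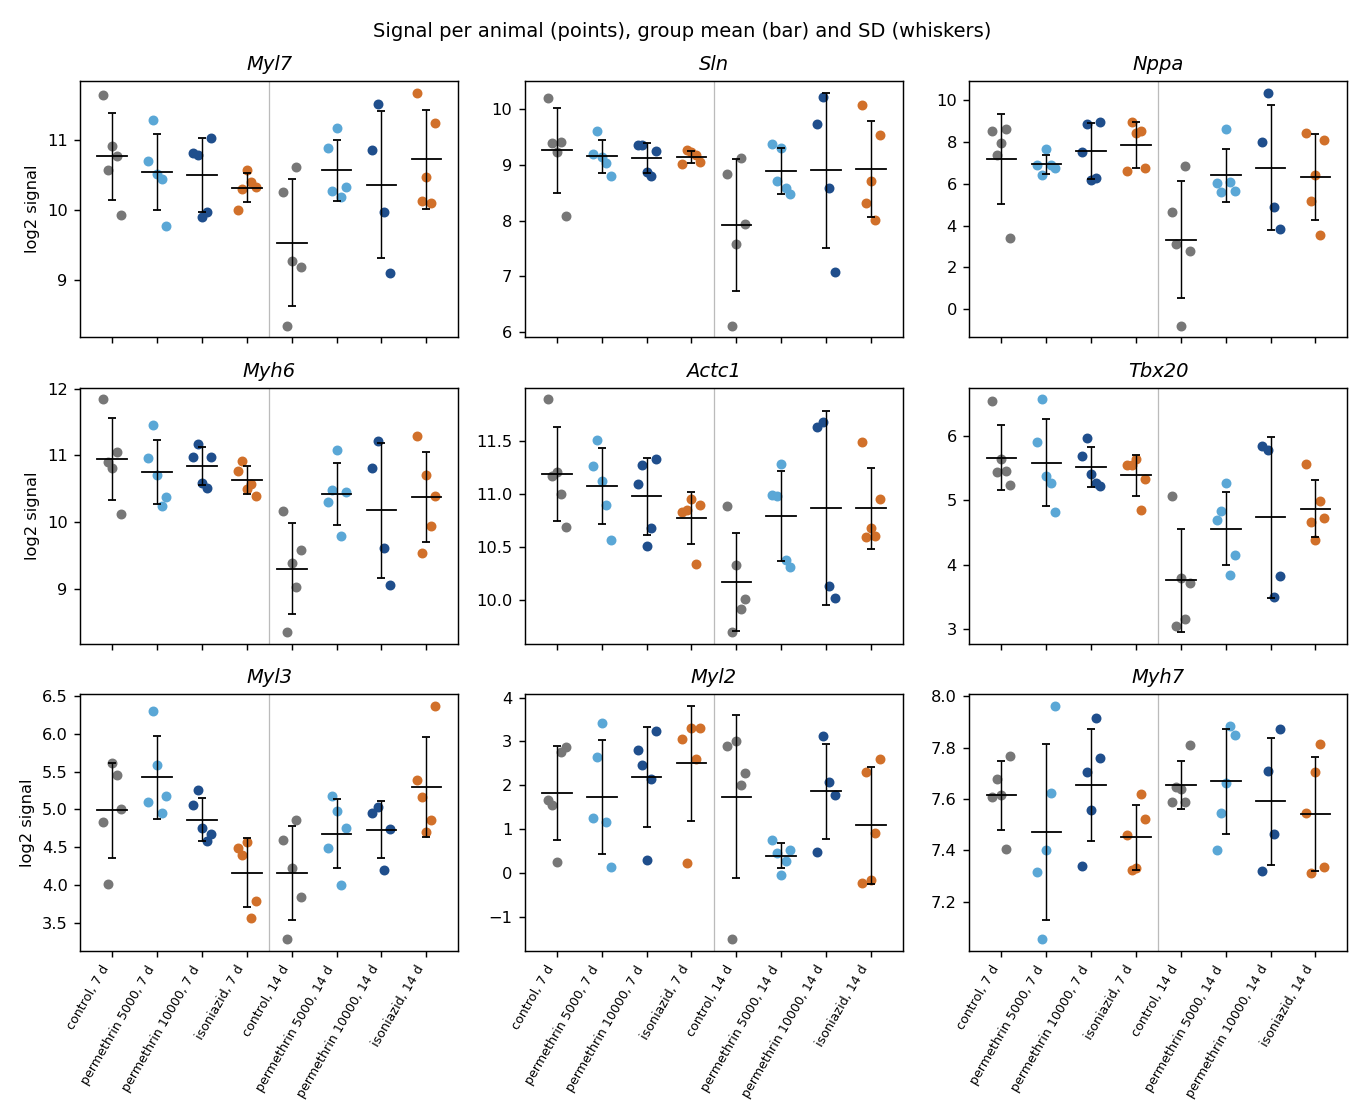
Log2 signal (y axis) of selected atrial, ventricular and shared cardiac genes in each animal (points) of the 8 groups (x axis), with a line at each group mean and an error bar of 1 SD. The 14-day controls sit lowest for Myl7 (mean 9.53) and Nppa (mean 3.32), while Myh7 stays between 7.05 and 7.96 in all animals.

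Among the ventricular genes, Myl2, the ventricular regulatory light chain, read 1.67, 1.55, 0.24, 2.76 and 2.86 in the 7-day controls and 2.90, -1.51, 3.01, 2.01 and 2.27 in the 14-day controls. Its highest value in any of the 39 animals was 3.42, so no library brought this probe set to the mean level at which genes were tested. Myl3, the ventricular essential light chain, which slow skeletal muscle also uses, read 4.84, 4.02, 5.62, 5.46 and 5.01 against 4.60, 3.29, 4.22, 4.86 and 3.85. These groups overlapped, and the difference was -0.82 (SE 0.32; limma adjusted p = 0.234). The other 2 probe sets of Myl3, at mean log2 signals of 4.35 and 4.19 and with r of 0.78 and 0.77 with the one used, gave -1.66 and -1.60 in this comparison. Their limma adjusted p was 0.488 and 0.406 when all 34945 probe sets annotated to 1 symbol were tested (0.42 for the one used). Isoniazid-fed animals had Myl3 at 4.49, 4.40, 4.57, 3.56 and 3.79 at 7 days and at 5.39, 5.16, 4.70, 4.86 and 6.37 at 14 days. All 5 of the later group lay above all 5 of the earlier, which held for no other member (1 of 38) and for 0.63% of all genes, and the difference of 1.13 did not pass the test (adjusted p = 0.233).

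Myh7 was steady. It read 7.61, 7.68, 7.62, 7.40 and 7.77 in the 7-day controls and 7.59, 7.65, 7.64, 7.59 and 7.81 in the 14-day controls, a difference of 0.04 (SE 0.13; limma adjusted p = 0.928). Over all animals it spanned 1.88-fold, the smallest spread of the tested members, while Myh6, its neighbour 2.67 kb away on chromosome 14, spanned 11.3-fold. Myh7 was also the only tested member whose correlation with the mean of the others was below 0 once group means were removed (r = -0.41 over 39 arrays). The 4 members of largest within-group spread were Nppa (residual SD 1.91), Nppb (1.28), Mb (0.81) and Trdn (0.79), and the 4 of smallest were Myh7 (0.21), Des (0.33), Nkx2-5 (0.41) and Eno3 (0.42). Of these, Nppa, Nppb, Trdn and Nkx2-5 had values under the lowest mean tested.

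The median residual SD of the 38 members was 0.64 against 0.26 for all 13020 genes tested, and 29 of the 38 were in the top 10% of genes by this measure. Animals that were high or low for 1 member were so for most. With group means removed, 28 of 38 members had a correlation of at least 0.8 with the mean of the other members, led by Tnni3 (cardiac troponin I, r = 0.97). In 3 it was under 0.5: Nppb (0.47), Nkx2-5 (0.21) and Myh7. Of the 37 members other than Myl7, 34 reached a correlation of at least 0.5 with Myl7, compared with 3.66% of all genes. These points share array, RNA extract and normalization, and the correlations are given as a description.

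**Figure D3:**
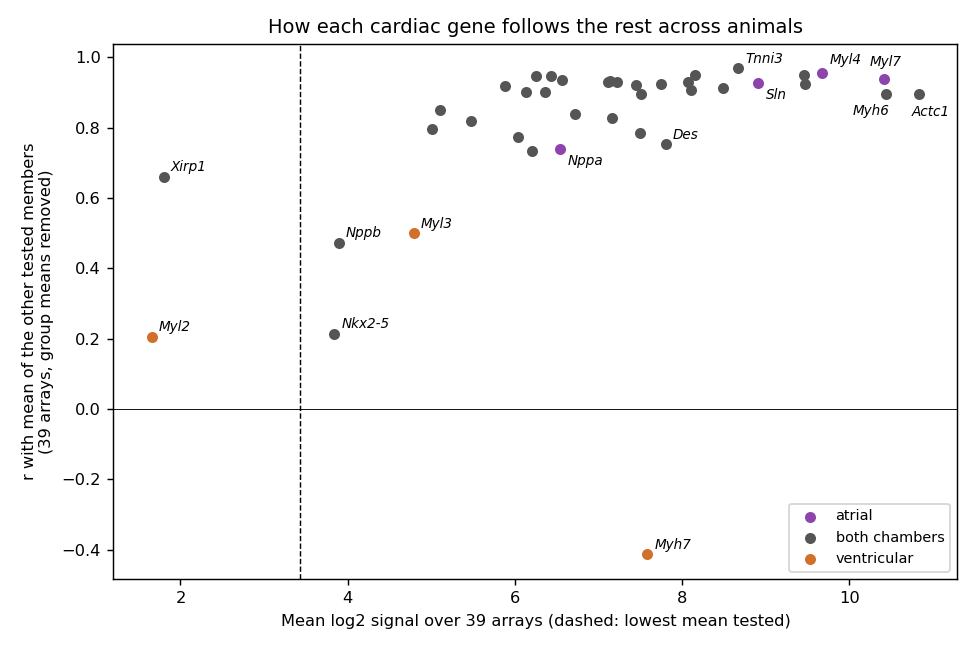
Correlation of each member with the mean of the other tested members over 39 arrays, group means removed (y axis), against its own mean log2 signal (x axis; the dashed line is the lowest mean tested), coloured by chamber. Atrial genes lie between 0.74 and 0.95, the ventricular Myl3 at 0.50, Myh7 at -0.41 and Myl2, left of the dashed line, at 0.21; signals of different probe sets are not comparable as levels.

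Across all 39 animals, 15 pairs of members were correlated. The members were chosen with earlier results of these data known, so the p-values of these pairs are a description and support nothing. The permutations also moved animals freely between the groups, so differences between groups enter the p-values. Within the atrial set, Myl7 followed Sln (Pearson r = 0.93, Spearman rho = 0.90), Myl4 (r = 0.89, rho = 0.84) and Nppa (r = 0.77, rho = 0.75). Each had a permutation p of 1e-05, the smallest that 100000 resamples can give (adjusted over 15 pairs, 1.67e-05 for r and 1.87e-05 for rho). With group means removed, r was 0.94 for Sln, 0.89 for Myl4 and 0.77 for Nppa. With the 2 animals farthest from the Myl7 median left out, r was 0.89 for Sln, 0.84 for Myl4 and 0.75 for Nppa. Within the 7-day animals r was 0.85, 0.87 and 0.52 in that order, and within the 14-day animals 0.96, 0.91 and 0.85.

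The same Myl7 values were set against the ventricular genes. The Myl2 probe set was under the lowest mean tested in all 39 arrays, so its correlations are listed without a reading about the gene. For Myl2, r was 0.14 and rho 0.05 (permutation p = 0.382 and 0.746; adjusted 0.409 and 0.799), and r was -0.07 without the 2 farthest animals, 0.18 at 7 days and 0.05 at 14 days. For Myl3, r was 0.58 and rho 0.51 (permutation p = 9e-05 and 0.00108; adjusted 0.000135 and 0.00147), 0.52 without the 2 farthest, 0.36 at 7 days and 0.74 at 14 days. For Myh7, r was -0.38 and rho -0.37 (permutation p = 0.0184 and 0.0215; adjusted 0.023 and 0.0268), -0.35 without the 2 farthest, -0.41 at 7 days and -0.37 at 14 days. The adjusted p of Myl7 with Myh7 was 0.322 under median centring and 0.0779 without the arrays of high Gapdh ratio. The ventricular pair Myl2 and Myl3 gave r = 0.12 and rho = -0.01 (permutation p = 0.457 and 0.931, both unchanged by adjustment), and r was -0.08 at 7 days and 0.25 at 14 days. Myl2 and Myh7 gave r = -0.22 and rho = -0.19 (permutation p = 0.179 and 0.244; adjusted 0.207 and 0.282), and r was -0.22 at 7 days and -0.14 at 14 days. Without the 2 animals farthest from the Myl2 median these were 0.0052 and -0.23. With group means removed, r of Myl7 was 0.28 with Myl2, 0.51 with Myl3 and -0.43 with Myh7. In the same way Myl2 had r of 0.35 with Myl3 and -0.18 with Myh7. The differences between these correlations were not tested.

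Genes used in both chambers were also correlated with the atrial ones. Myl7 had r of 0.88 with Tnnt2 (troponin T, which anchors the troponin complex on the thin filament), 0.84 with Actc1 and 0.81 with Myh6. Myh6 in turn had r of 0.89 with Pln (phospholamban, the brake on the calcium pump), 0.86 with Mb (myoglobin, the oxygen store of muscle), 0.68 with Cox7a1 (a muscle isoform of a cytochrome c oxidase subunit) and 0.47 with Des (desmin). Spearman's rho for these 7 pairs, in the same order, was 0.80, 0.84, 0.75, 0.88, 0.86, 0.65 and 0.54. The permutation p of r was 1e-05 (adjusted 1.67e-05) for each except Des (0.00234; adjusted 0.00319), and that of rho was 1e-05 except for Cox7a1 (3e-05) and Des (0.00069). Without the 2 farthest animals, r was 0.81, 0.79, 0.71, 0.90, 0.89, 0.69 and 0.53. Within the 7-day animals it was 0.77, 0.89, 0.83, 0.79, 0.86, 0.94 and 0.69, and within the 14-day animals 0.94, 0.82, 0.85, 0.89, 0.84, 0.74 and 0.51. With group means removed, r was 0.88, 0.81, 0.80, 0.87, 0.83, 0.77 and 0.66. Des, the intermediate filament of every muscle, had the lowest of these 7 values of r.

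Group means of the other genes read in full are given as log2 signals ± SD, with n = 5 except n = 4 for permethrin 10000 ppm at 14 days, in the order control, permethrin 5000 ppm, 10000 ppm and isoniazid. Actc1, the cardiac actin of the thin filament, had 11.19 ± 0.44, 11.07 ± 0.36, 10.97 ± 0.36 and 10.77 ± 0.25 at 7 days and 10.16 ± 0.46, 10.79 ± 0.42, 10.87 ± 0.91 and 10.86 ± 0.38 at 14 days. Tnnt2 had 9.87 ± 0.67, 9.66 ± 0.47, 9.76 ± 0.24 and 9.71 ± 0.23 at 7 days and 8.41 ± 0.78, 9.34 ± 0.46, 9.37 ± 1.19 and 9.55 ± 0.70 at 14 days. In both, the 14-day controls had the lowest mean of the 8 groups. Pln had 8.12 ± 0.79, 7.80 ± 0.45, 8.21 ± 0.17 and 8.18 ± 0.24 at 7 days and 6.63 ± 0.81, 7.51 ± 0.58, 7.63 ± 1.16 and 7.88 ± 0.89 at 14 days. Mb had 10.01 ± 0.80, 9.73 ± 0.36, 9.80 ± 0.64 and 9.60 ± 0.21 at 7 days and 8.47 ± 1.15, 9.49 ± 0.47, 9.47 ± 1.34 and 9.21 ± 1.01 at 14 days. Cox7a1 had 7.26 ± 0.70, 7.13 ± 0.52, 7.14 ± 0.33 and 7.03 ± 0.12 at 7 days and 6.63 ± 0.69, 7.30 ± 0.40, 7.40 ± 1.18 and 7.23 ± 1.003 at 14 days. These 3 also had their lowest mean in the 14-day controls, with the widest SDs in the 14-day animals of permethrin 10000 ppm. Des had 8.02 ± 0.42, 7.71 ± 0.26, 7.69 ± 0.25 and 7.78 ± 0.19 at 7 days and 7.71 ± 0.04, 7.72 ± 0.22, 8.11 ± 0.40 and 7.76 ± 0.59 at 14 days. Nkx2-5, near the lowest level tested, had 3.87 ± 0.33, 3.92 ± 0.59, 3.80 ± 0.12 and 4.01 ± 0.30 at 7 days and 3.60 ± 0.35, 3.90 ± 0.60, 3.90 ± 0.19 and 3.71 ± 0.49 at 14 days. In each of these 7 genes every diet group overlapped the controls of its time.

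The chamber genes under the diets are given in the same way, in the order permethrin 5000 ppm, 10000 ppm and isoniazid. At 7 days Myl7 had 10.54 ± 0.54, 10.49 ± 0.52 and 10.31 ± 0.21, and Nppa 6.93 ± 0.45, 7.57 ± 1.34 and 7.86 ± 1.09. Myl4 had 10.10 ± 0.47, 9.86 ± 0.36 and 9.65 ± 0.31 at 7 days and 9.58 ± 0.61, 9.76 ± 1.15 and 9.70 ± 0.85 at 14 days. Sln had 9.15 ± 0.29, 9.13 ± 0.27 and 9.14 ± 0.11 at 7 days and 8.89 ± 0.42, 8.90 ± 1.39 and 8.92 ± 0.86 at 14 days. All of these atrial groups overlapped the controls of their time. Among the ventricular genes Myl2 had 1.73 ± 1.31 and 2.19 ± 1.14 at 7 days with permethrin, and its values with isoniazid ran from 0.21 to 3.31. Myl3 had 5.43 ± 0.55, 4.86 ± 0.28 and 4.16 ± 0.45 at 7 days and 4.68 ± 0.45, 4.73 ± 0.38 and 5.30 ± 0.66 at 14 days. Myh7 had 7.47 ± 0.34, 7.66 ± 0.22 and 7.45 ± 0.13 at 7 days and 7.67 ± 0.20, 7.59 ± 0.25 and 7.54 ± 0.22 at 14 days. The tested 2 of them overlapped the controls throughout. Tnni3 had 9.10 ± 0.62, 9.01 ± 0.42, 8.97 ± 0.25 and 8.72 ± 0.17 in the controls and the 3 diets at 7 days, and Ldb3 had 6.51 ± 0.45, 6.63 ± 0.43 and 6.37 ± 0.34 under the diets at 7 days and 6.02 ± 0.65, 6.18 ± 0.79 and 6.04 ± 0.57 at 14 days.

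The study compared the diets, and at 7 days no cardiac gene was called. With permethrin 5000 ppm, 10000 ppm and isoniazid, 0 of 38 members passed limma's test against the 7-day controls, beside 0.0922%, 0.238% and 0.0461% of all genes. At an unadjusted p under 0.05 the counts were 0, 0 and 1, beside 1.99%, 3.15% and 6.52%. The median log2 difference over the 38 members was -0.14, -0.15 and -0.28 in that order, against -0.01 to 0.03 over all genes in the 13 comparisons made. With 1 animal left out these medians ran from -0.34 to 0.08, -0.37 to 0.04 and -0.46 to -0.13, each at its highest without control 7 d replicate 1. Myh6 read 11.84, 10.90, 10.81, 11.05 and 10.11 in these controls, and its group means were 10.75 ± 0.48, 10.84 ± 0.29 and 10.63 ± 0.21 (SD, n = 5 each) under the diets, all of which overlapped the controls.

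At 14 days members sat above the controls under all 3 diets, and none passed the test. The counts were again 0 of 38 for permethrin 5000 ppm, 10000 ppm and isoniazid, beside 0.131%, 0.215% and 0.0307% of all genes called by limma. At an unadjusted p under 0.05, 25, 23 and 30 of 38 members were higher and 0 lower, beside 5.22%, 6.04% and 6.03% of all genes in either direction. The median log2 difference of the members was 0.87, 0.87 and 0.99. These 3 comparisons share the same 5 control animals, which had the lowest mean of the 8 groups in 35 of 38 members.

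Myh6, the alpha myosin heavy chain, read 10.17, 8.34, 9.38, 9.03 and 9.58 in the 14-day controls. It read 10.30, 10.49, 11.09, 9.79 and 10.45 with permethrin 5000 ppm, 10.82, 11.21, 9.61 and 9.06 with 10000 ppm, and 11.29, 9.54, 10.70, 9.93 and 10.39 with isoniazid. Each treated group overlapped the controls, though all 5 animals of the 5000 ppm and isoniazid groups lay above the control mean. The differences were 1.12 (SE 0.34; adjusted p = 0.54), 0.87 (SE 0.36; adjusted p = 0.698) and 1.07 (SE 0.34; adjusted p = 0.601) by limma.

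The thin filament genes gave like values. Tnni3, cardiac troponin I, read 8.71, 6.37, 7.53, 8.004 and 7.46 in the 14-day controls, 8.98, 8.61, 9.19, 8.33 and 8.25 with permethrin 5000 ppm, 9.26, 9.85, 7.94 and 7.23 with 10000 ppm, and 9.68, 8.21, 8.57, 7.88 and 9.15 with isoniazid. All 3 treated groups overlapped the controls, of which replicate 1 was the highest and replicate 2 the lowest. The differences were 1.06, 0.95 and 1.08 for Tnni3, 0.92, 0.96 and 1.14 for Tnnt2, and 0.62, 0.70 and 0.70 for Actc1, with adjusted p from 0.602 to 0.919. For the calcium handling gene Pln they were 0.88, 1.004 and 1.25 (adjusted p = 0.929, 0.724 and 0.602), and for Mb 1.03, 1.01 and 0.75 (adjusted p = 0.929, 0.826 and 0.922).

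The atrial genes gave 1.03, 0.82 and 1.19 for Myl7, 0.89, 1.07 and 1.01 for Myl4, 0.97, 0.98 and 1.01 for Sln, and 3.08, 3.46 and 3.01 for Nppa, in the order permethrin 5000 ppm, 10000 ppm and isoniazid. The adjusted p of the 4 atrial genes lay between 0.514 and 0.929. Mybpc3, the myosin-binding protein C of the thick filament, was the 1 of 38 members whose 5 values with permethrin 5000 ppm (5.57, 5.52, 6.18, 5.39 and 5.86) all exceeded the 5 of the controls (5.26, 4.39, 4.39, 4.87 and 4.79), as did 0.668% of all genes. Its difference was 0.96 (SE 0.35; limma adjusted p = 0.809).

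Single animals moved many of these differences by over 1.5 times. Without control 14 d replicate 2, the 3 diet differences were 0.52, 0.53 and 0.56 for Sln and 0.58, 0.56 and 0.30 for Mb, and with 10000 ppm Myl7 gave 0.53. Without control 14 d replicate 3, Nppa gave 2.05 with permethrin 5000 ppm and 1.99 with isoniazid. The 10000 ppm group, with 4 animals, leaned most on replicate 2, its highest animal. Without it the differences were 0.44 for Myl7, 0.69 for Myl4, 0.55 for Sln, 2.26 for Nppa, 0.53 for Myh6, 0.53 for Tnni3, 0.59 for Tnnt2, 0.43 for Actc1, 0.63 for Pln and 0.58 for Mb, and the median of the members was 0.51. Without its lowest animal, replicate 4, they were 1.24 for Myl7, 1.59 for Sln, 1.46 for Tnnt2 and 1.52 for Mb. Without replicate 1 Actc1 gave 0.45, and in the isoniazid group Mb gave 0.41 without replicate 1.

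Cox7a1, Des, Nkx2-5 and Myh7 gave smaller differences. Cox7a1 gave 0.67, 0.77 and 0.60, Des 0.01, 0.40 and 0.05, Nkx2-5 (a homeobox factor of the heart field) 0.29, 0.30 and 0.10, and Myh7 0.01, -0.06 and -0.11, all with adjusted p of at least 0.859. With 1 animal left out, the Cox7a1 differences ranged from 0.44 to 0.86, 0.32 to 1.25 and 0.31 to 0.79. With permethrin 5000 ppm, Des and Myh7 turned below 0 under the deposited scaling and under median centring. The ventricular Myl3 gave 0.52, 0.57 and 1.13 (adjusted p = 0.97, 0.912 and 0.382), while its other 2 probe sets gave 0.95, 1.68 and 1.89, and 1.08, 1.31 and 1.65. Group means of Myl2 at 14 days were 1.74 ± 1.86 in controls, 0.39 ± 0.29, 1.86 ± 1.09 and 1.08 ± 1.33 under the diets.

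**Figure D4:**
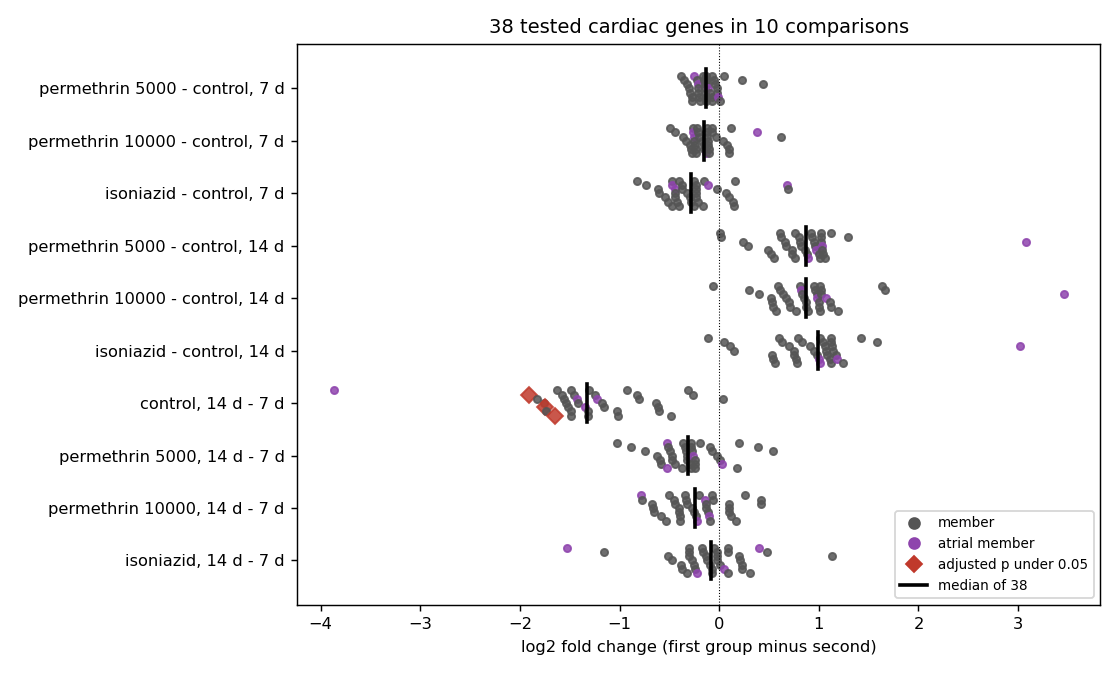
Log2 differences, first group minus second (x axis), of the 38 tested members (points; atrial members in purple) in 10 comparisons (y axis), with a bar at each median and red diamonds at the 3 members past an adjusted p of 0.05. Diet differences at 14 days lie mostly near 1 (medians 0.87, 0.87 and 0.99) and control differences between 14 and 7 days mostly below 0 (median -1.33), and the same 5 control animals enter all 4.

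The comparison in which members were called was that of the 14-day with the 7-day controls, which were different animals. On plain diet, 3 of 38 members were lower at 14 than at 7 days and none higher by limma's test, beside 0.115% of all genes (15 of 13020). They were Ldb3, Tbx20 and Myh6. Over the 38 members the median log2 difference was -1.33, 37 were negative, and 32 were lower at an unadjusted p under 0.05, beside 13.9% of all genes in either direction.

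Ldb3, a Z-disc protein that ties alpha-actinin to signalling enzymes, read 7.93, 6.90, 6.45, 6.75 and 6.02 in the 7-day controls and 6.05, 4.72, 5.51, 4.38 and 4.65 in the 14-day controls. Only control 14 d replicate 1 reached the lower end of the 7-day group. Ldb3 was lower by 1.75 on the log2 scale (SE 0.35, limma adjusted p = 0.033).

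Tbx20, a T-box transcription factor required for heart development, read 6.54, 5.44, 5.63, 5.45 and 5.24 against 5.07, 3.05, 3.80, 3.15 and 3.71. These groups did not overlap. Tbx20 was lower by 1.91 (SE 0.39, limma adjusted p = 0.033). Hspb7, a small heat shock protein of the Z-disc region, was the only other member without overlap (2 of 38 all lower, beside 2.15% of all genes), at 8.26, 6.93, 6.99, 6.81 and 6.42 against 6.30, 4.55, 5.14, 5.22 and 6.32. Its difference of -1.57 (SE 0.40) did not pass (adjusted p = 0.0773).

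Myh6 was lower by 1.64 (SE 0.34, limma adjusted p = 0.0344), which is 3.12-fold, and control 14 d replicate 1 overlapped the lowest 7-day control. The calls changed with single animals. Without control 14 d replicate 1, 20 members were called, and without control 7 d replicate 5, 11. Without control 7 d replicate 3, 1 was called, and without any 1 of control 7 d replicates 1, 2 or 4 or control 14 d replicates 2, 3, 4 or 5, 0 were called. The number of all genes called in these fits with 1 animal left out is not given, so the counts are not read as a result about the members. No member was called under median centring, with every probe set tested, without the 7 arrays of high Gapdh ratio or in a fit of the 2 groups alone. Of all genes, 0 were called under median centring and with every probe set, and 4 without the arrays of high Gapdh ratio. The log2 differences without those 7 arrays were -1.39 for Ldb3, -1.69 for Tbx20 and -1.65 for Myh6, with adjusted p of 0.206, 0.159 and 0.178.

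The members are given here by role for the control comparison, in which 994 of 13020 genes were lower at an unadjusted p under 0.05. In either direction it was 13.9% of all genes. The roles are parts of 1 set whose members were correlated across animals, so their counts are not separate results. Among calcium handling genes all 7 were lower at an unadjusted p under 0.05 (median -1.49), counting the atrial Sln: Ryr2, the calcium release channel (-1.56), Trdn, which anchors calsequestrin to it (-1.83), Casq2, the cardiac calsequestrin (-1.32), Pln (-1.49), Hrc (-1.32) and Srl (-1.49). In the thin filament it was 4 of 4 (median -1.35), in the Z-disc and titin group 8 of 9 (median -1.31), among genes of energy supply 6 of 8 (median -1.17), among light chains 3 of 3 and in the thick filament 2 of 3. Of the natriuretic peptides it was 1 of 2 (Nppa), and of the transcription factors 1 of 2 (Tbx20). Cox7a1 (-0.63), Des (-0.31), Nkx2-5 (-0.27) and Nppb, the B-type natriuretic peptide (-0.62), had limma adjusted p of 0.498, 0.51, 0.719 and 0.779.

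The remaining members did not pass in this comparison and are given by their log2 difference. In the thin filament these were Tnnt2 (-1.46), Tnni3 (-1.48), Tnnc1, the calcium-binding troponin C (-1.24), and Actc1 (-1.03). Around the Z-disc and titin they were Actn2, the alpha-actinin of the Z-disc (-1.18), Ttn, titin itself (-1.76), Smpx (-1.73), Csrp3 (-1.31), Myoz2 (-1.16) and Tcap, the titin cap (-1.01), and in the thick filament Mybpc3 (-0.81). Among genes of energy supply the creatine kinases Ckm and Ckmt2 gave -1.42 and -1.63, the glycolytic Pgam2 and Eno3 -1.51 and -0.61, Mb -1.54, the fatty acid carrier Fabp3 -0.93 and the oxidase subunit Cox6a2 -0.49. Their limma adjusted p, with those of the calcium handling genes, lay between 0.0628 and 0.423. Xirp1, an actin-binding protein that was not tested, ranged from -1.34 to 3.93 over the 39 arrays.

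The treated animals did not show this difference to a degree that passed the test. Between 14 and 7 days, 0 of 38 members were called with permethrin 5000 ppm, 10000 ppm or isoniazid, beside 0%, 0% and 0.00768% of all genes. At an unadjusted p under 0.05 the counts by limma were 2 (Myl3 and Tbx20, both lower), 0 and 1 (Myl3, higher), beside 10.9%, 10.2% and 11.4% in either direction. The medians were -0.31, -0.24 and -0.08, and with 1 animal left out they ran from -0.47 to -0.16, -0.63 to 0.08 and -0.28 to 0.04. The test of whether a diet's effect differed between 14 and 7 days called 0 members and 0% of all genes for each diet, with 15, 12 and 25 members at an unadjusted p under 0.05 (beside 2.85%, 2.25% and 2.95%) and medians of 1.01, 1.04 and 1.20. With 1 animal left out these medians ran from 0.72 to 1.26, 0.64 to 1.44 and 0.97 to 1.47, and the 0.64 came without permethrin 10000 ppm 14 d replicate 2.

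Over the 8 groups together, limma's F test called the same 3 members, Tbx20 (adjusted p = 0.0191), Ldb3 (0.0408) and Myh6 (0.0455), beside 2.15% of all genes. Tbx20 had group means at 7 days of 5.66 ± 0.51 in controls, 5.58 ± 0.67, 5.51 ± 0.31 and 5.38 ± 0.32 under permethrin 5000 ppm, 10000 ppm and isoniazid, and at 14 days of 3.76 ± 0.80, 4.56 ± 0.57, 4.74 ± 1.25 and 4.87 ± 0.44. Its order ran from the 14-day controls, through the 14-day diets, to the 7-day groups, and the values of neighbouring groups in this order overlapped. The 3 calls were lost without control 14 d replicate 2, without the arrays of high Gapdh ratio and with that ratio as a covariate.

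Control 14 d replicate 2 was the lowest of all 39 animals in the mean log2 signal of the 38 members, at 5.51. It was followed by control 14 d replicate 3 at 6.02 and permethrin 10000 ppm 14 d replicate 4 at 6.17. The highest were control 7 d replicate 1 at 8.47 and permethrin 10000 ppm 14 d replicate 2 at 8.38. Both the highest and the lowest animals thus include untreated ones, and the 4 animals of permethrin 10000 ppm at 14 days ran from 6.17 to 8.38. The Gapdh ratios of the lowest 3 animals were 0.14, -0.01 and 0.08 on the log2 scale, while those ranked 4 and 5, control 14 d replicate 5 and permethrin 10000 ppm 14 d replicate 3, had 0.79 and 1.29.

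Other lists were read beside the members. Of 24 further cardiac genes 22 were tested. Between the controls Atp2a2, the calcium pump of the sarcoplasmic reticulum, was lower by 1.30 at 14 days (SE 0.27, limma adjusted p = 0.0344). Corin, the protease that activates Nppa's product (-2.17, adjusted p = 0.0628), and Synpo2l (-1.51, adjusted p = 0.0698) did not pass. Of 9 further atrial or pulmonary vein genes 5 were tested, with the potassium channels Kcnj3 (-1.86) and Kcnj5 (-1.63) and the myosin-binding protein Mybphl (-1.57) at adjusted p of 0.0698, 0.0763 and 0.07. The ventricular factors were Hey2 (-0.23, adjusted p = 0.621) and Irx4, which had a mean log2 signal of -0.07 and was not tested. With group means removed, 12 of the 22 and 4 of the 5 had a correlation of at least 0.5 with Myl7, and Hey2 gave -0.15.

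Genes on lists for other tissues moved in part with the members, and their part in the results was not tested. A listed gene need not be specific to its tissue, and which cells its signal came from was not tested either. Of 16 skeletal muscle genes 5 were tested, while the other 11, among them Myh1, Myh2, Myh4 and Tnnt3, lay under the lowest mean tested. Of the 5, Myl1 (-2.71, adjusted p = 0.191) and Acta1 (-0.55, adjusted p = 0.515) had correlations of 0.70 and 0.62 with Myl7, and Mylpf (0.45, adjusted p = 0.469) had 0.01. Only these 2 of the 5 reached 0.5, and the median of the 5 was 0.15. The summed signal of the 16 ran from 108 to 169 in the 14-day controls and from 130 to 314 in the 7-day controls. The 10 smooth muscle genes summed to 6852 to 8820 against 8130 to 11960. Of these, 6 of 10 were lower at an unadjusted p under 0.05 (13.9% of all genes in either direction), led by Synpo2 (-0.85), Myh11 (-0.98) and Mylk (-0.35) at adjusted p of 0.124, 0.128 and 0.175. With group means removed, 5 of the 10 had a correlation of at least 0.5 with Myl7, with a median of 0.41 over the 10. The 6 brown fat genes summed to 113 to 277 against 200 to 951. Ucp1 lay under the lowest mean tested, and 4 of the 5 tested were lower in that way. Among them were Dio2 (-0.87, adjusted p = 0.115), Slc27a2 (-1.19, adjusted p = 0.158) and Cox8b (-1.05, adjusted p = 0.304). With group means removed, 4 of the 5 had a correlation of at least 0.5 with Myl7, and their median was 0.52. The highest was that of Cox8b, at 0.88, which is not read as a sign of brown fat. Liver genes (5 tested) had a highest correlation of 0.17 with Myl7, and the smallest adjusted p among them was 0.57, for Alb (-0.93). None of these lists had a gene called in this comparison, nor had the 9 lung epithelial genes, of which Sftpb (0.50, adjusted p = 0.135) had the smallest p. In the F test over all groups, Corin (adjusted p = 0.0254), Atp2a2 (0.0263) and the smooth muscle integrin Itga8 (0.0451) passed.

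Outside the member list, the genes whose pattern over the 39 arrays was most like the mean of the members, with group means removed, were Trim63 (r = 0.90), Hjv (0.90), Mybphl (0.90), Ndrg4 (0.89), Myom2 (0.88), Tmem182 (0.87), Sh3bgr (0.87), Fhod3 (0.87), Atp2a2 (0.86) and Slc25a4 (0.86). They were ranked among 12982 genes. Trim63 encodes a ubiquitin ligase of striated muscle, Myom2 an M-band protein and Slc25a4 the muscle form of the mitochondrial adenine nucleotide carrier.

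Several members had more than 1 probe set. The 40 members had 71 probe sets annotated to them alone, and 17 had more than 1. Of the 31 probe sets not used, 14 had a correlation of at least 0.5 with the one used and 17 did not, and 13 of those 17 lay under the lowest mean tested. The second probe set of Tnnt2 had r = 0.99, those of Pln 0.95 and 0.92, and that of Cox6a2 0.88. At low mean log2 signals, the third of Tnnt2 (2.56) gave 0.25, and the second of Ckm (3.40) -0.06, of Mb (0.67) -0.41, of Des (3.15) -0.37 and of Fabp3 (3.73) 0.11. The others of Ldb3 had r of 0.66 and 0.14 and gave control differences of -0.93 and -0.53, the first of them with a correlation of 0.85 with the members' mean, group means removed, against 0.73 for the one used. The others of Tbx20 had r of 0.04 and -0.02 at mean log2 signals of 3.09 and 0.83, and that of Myh6 had r of 0.45 at 1.46. When all 34945 probe sets annotated to 1 symbol were tested, these other probe sets of Ldb3, Tbx20 and Myh6 had limma adjusted p of at least 0.419. The used ones had 0.0747 each in that fit and did not pass either. The calls of Ldb3, Tbx20 and Myh6 thus each rest on 1 probe set and on the fit with 1 probe set per gene.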

How the data were processed

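RNA of 39 lungs, 1 per array, was labelled from its 3′ ends, per the labels' protocols. The deposited values are linear signal intensity per probe set. MAS5 is the tool that the submitters' processing notes name, with its version not given in the sources used here. The trimmed mean of each array was 100.0 and array medians differed by up to 1.51 times. The log2 signal was then quantile normalized, without a pseudocount, which removes shifts shared by most genes. In all, 13020 genes were tested, those with a mean of 3.43 or more on the log2 scale. Means of 8 groups were fitted with limma 3.58.1 in R 4.3.3 (empirical Bayes with a mean-variance trend), 13 comparisons and an F test, with Benjamini-Hochberg adjustment over all genes and a threshold of 0.05. Values after ± are SDs over the animals of a group. Pair correlations and their 100000 permutations used numpy 2.4.6, with ranks from scipy 1.17.1. The pipeline was tested on simulated data. The number of arrays limits the precision. Sample titles gave the groups and the replicate numbers.

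The members and lists were chosen with earlier results of these data known. All 40 members are accounted for, with values in every group for the chamber genes, Myh6, Actc1, Tnnt2, Tnni3, Pln, Mb, Cox7a1, Des, Nkx2-5 and any member called. The named outside genes are the 10 most like the members' mean and, per list, up to 3 of smallest p. Alternatives were the deposited scaling, median centring, a pseudocount of 4, no filter, an upper 40% filter, every probe set, array weights, a replicate block, the Gapdh ratio and leaving out each array. Promoters came from RefSeq (GRCm38.p6). Same-numbered animals of different groups had correlations of deviations from -0.34 to 0.37, and other pairs from -0.32 to 0.40. The numbers were not used to pair animals in the main fit, and an effect they may share was not tested.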

Additional observations from a re-analysis of the deposited data

Results flagged for a closer look

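Groups were examined for 18 members and for the mean of the tested members, in 8 groups each. In 7 of these 152 cases (4.61%), 1 animal stood apart from the rest of its group by Dixon's 95% limit, which chance exceeds in about 1 of 20 groups. Nppa was 3.42 in control 7 d replicate 5, with the others of the group at 7.40 to 8.61, and 8.64 in permethrin 5000 ppm 14 d replicate 3, with the others at 5.59 to 6.09. Myl2 was 0.21 in isoniazid 7 d replicate 2 (others 2.60 to 3.31) and -1.51 in control 14 d replicate 2 (others 2.01 to 3.01), all under the lowest mean tested. Nkx2-5 was 3.48 in isoniazid 7 d replicate 2 (others 4.06 to 4.21). Myh7 was 7.81 in control 14 d replicate 5 (others 7.59 to 7.65), and Actc1 was 10.33 in isoniazid 7 d replicate 4 (others 10.83 to 10.95). All values are log2 signals.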

How the results depend on the processing

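Of the counts of called members, those of the control comparison, of the F test and of permethrin 10000 ppm at 14 days moved. For control at 14 against 7 days the count of 3 became 0 under median centring, with every probe set, without the arrays of high Gapdh ratio and with only the compared groups, 28 with array weights, and 0 to 20 with 1 animal left out. Beside these, 15 of all genes were called in the main fit and 278 with array weights. With the replicate block 16 members were called, beside 74 of all genes. The median correlation was 0.03 over 133 same-numbered pairs and -0.02 over 532 other pairs, and whether the numbers pair the animals was not tested. For the F test, 3 became 1 under median centring, with no filter and with every probe set, 18 with array weights, 0 without the arrays of high Gapdh ratio or with that ratio as a covariate, and 0 to 5 with 1 animal left out. For permethrin 10000 ppm at 14 days, 0 became 3 with array weights (Nppa, Smpx and Tnnc1) and 0 to 2 with 1 animal left out. Of all genes, 28 were called there in the main fit and 71 with array weights. The numbers of all genes called in the F test alternatives and with 1 animal left out are not given. The adjusted permutation p of Myl7 and Myh7 was no longer under 0.05 under median centring (r = -0.19) and without the arrays of high Gapdh ratio (r = -0.33). The cause of these shifts was not tested. Values near 0 turned sign. Against control at 14 days, Myh7 with permethrin 5000 ppm was -0.013 under the deposited scaling, -0.0095 under median centring, -0.055 with array weights, -0.088 without the arrays of high Gapdh ratio and -0.040 to 0.081 with 1 animal left out. Myh7 with permethrin 10000 ppm was 0.0080 without those arrays and -0.16 to 0.027 with 1 animal left out. Des with permethrin 5000 ppm was -0.0070 under the deposited scaling, -0.0036 under median centring and -0.058 to 0.071 with 1 animal left out. Des with isoniazid was -0.057 without the arrays of high Gapdh ratio and -0.13 to 0.16 with 1 animal left out, and Nkx2-5 with isoniazid -0.070 to 0.23. Myh7 between the controls was -0.0031 under median centring and -0.012 to 0.079 with 1 animal left out. Under the scaling alternatives the median log2 difference of all genes was at most 0.07 in size in any comparison.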
